A study of Homo sapiens with 28 samples.

Results

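The comparison described here asks what *HOXB13* knockdown (KD) changes in prostate cancer cells treated with a p300/CBP inhibitor. Its members are the 6 of 28 RNA-seq libraries that received CCS1477, 3 of them with shHOXB13 and 3 with shCtrl. Libraries were assigned by their treatment labels alone, and all genes in the deposited tables were considered. The cell line, LNCaP, derives from a lymph node metastasis of human prostate cancer and responds to androgen. The shHOXB13 cells carry a lentiviral pGIPZ hairpin against *HOXB13*, and the shCtrl cells carry the matching control vector. Both arms were treated with 250 nM CCS1477, a selective p300/CBP bromodomain inhibitor, for 48 hours, so the drug is common to the groups compared. Matched shCtrl and shHOXB13 cells with DMSO (3 libraries each) give the KD effect without the drug. A separate knockdown series without CCS1477 or DMSO in its labels (2 shCtrl and 2 shHOXB13 libraries) was used to choose genes in other libraries. The study describes the replicates as biological. One hairpin sequence stands for *HOXB13* loss, so an off-target effect of that hairpin cannot be told apart from loss of the gene.

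HOXB13 is a homeobox transcription factor of the prostate that can bring the HDAC3-NCoR corepressor to enhancers. HDAC3 removes acetyl groups from histones, and p300 and CBP add them, through a catalytic domain that is separate from the bromodomain with which they bind acetylated histones. Lipid synthesis genes are controlled in large part by the SREBP transcription factors, which are released from the endoplasmic reticulum when sterols are low.

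*HOXB13* (chr17:48724763-48728750, minus strand, GRCh38) stood at 136, 129 and 109.8 FPKM (reads scaled to gene length and to the mapped reads of the library) in the shCtrl CCS1477 libraries and at 30.2, 29.8 and 28.4 FPKM in the shHOXB13 CCS1477 libraries. The groups did not overlap (log2 −2.07, SE 0.08, limma adjusted p = 5.8e-09). The KD was about as deep under DMSO (log2 −2.22), and no difference between the effects with and without drug was detected (log2 0.15, SE 0.12, limma adjusted p = 0.43). Values are log2 differences of FPKM + 0.1 unless given as FPKM, SE is the standard error of the limma estimate, and n = 3 libraries per group throughout.

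The libraries held 10984619 to 12559276 mapped reads in shCtrl CCS1477 and 11615861 to 14427238 in shHOXB13 CCS1477. Reads lying in genes made up 82.6 to 84.0% of mapped reads in shCtrl CCS1477 and 79.6 to 80.8% in shHOXB13 CCS1477, and these ranges did not overlap. The part of this difference in the results was not tested, beyond a rescaling to reads in genes in the closing section. Replicates correlated at 0.960 to 0.982 (Pearson's r of log2 values across genes, which are not independent). The shCtrl libraries numbered 1 stood slightly apart, with r of at most 0.963 to their replicates against at least 0.977 in all other pairs. Luminal genes were abundant in all groups, with *FOXA1* at 228, 205 and 221 FPKM in shCtrl CCS1477 and 194, 179 and 182 FPKM in shHOXB13 CCS1477. The immune markers *PTPRC*, *CD3D* and *CD3E* were listed at 0 in all 6 libraries, as were the fibroblast markers *DCN*, *PDGFRA* and *FAP*. Other members of both lists were detected. In shCtrl CCS1477 the 10 immune markers summed to 8.15 to 8.41 FPKM and the 11 fibroblast and stroma markers to 9.6 to 11.4 FPKM.

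A total of 433 genes were higher and 1271 lower in shHOXB13 than in shCtrl cells under CCS1477, at an adjusted p under 0.05 and at least a 2-fold difference. These are 2.72% and 7.99% of the 15907 genes tested. Under DMSO the same rule called 662 genes higher (4.16%) and 2731 lower (17.2%). The libraries of the 2 groups did not overlap for 422 of the 433 higher and 1244 of the 1271 lower genes. The median over all tested genes was −0.20 under CCS1477 and −0.33 under DMSO, and the split of calls by direction depended on the scale. With median-of-ratios scaling these medians were −0.01 and −0.02, and the counts under CCS1477 became 644 higher and 870 lower, which moves the share of higher genes among the calls from 25.4% to 42.5%. Under DMSO they became 1251 and 1642, a move from 19.5% to 43.2%.

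The CCS1477 and DMSO contrasts share no library. Of the genes raised by *HOXB13* KD under DMSO, 273 were also called higher under CCS1477, which is 41.2% of the 662 and 63.0% of the 433. Of the genes lowered under DMSO, 1038 were called lower under CCS1477, or 38% of the 2731 and 81.7% of the 1271. Dropping the fold threshold under CCS1477, 451 (68.1%) of the DMSO-raised and 2007 (73.5%) of the DMSO-lowered genes passed in the same direction. The calls went in opposite directions for 4 genes. A test of the difference itself (effect under CCS1477 minus effect under DMSO) called 171 genes with a lower effect (1.07% of tested genes) and 390 with a higher effect (2.45%). With median-of-ratios scaling these were 238 and 289. Calls of the difference here needed an adjusted p under 0.05 and at least 2-fold. Without that scaling, 127 of the genes raised under DMSO were called with a smaller effect under CCS1477 and 5 with a larger one. Among genes lowered under DMSO, 315 had a smaller effect and 3 a larger one. Both groups were chosen by the DMSO effect, which is subtracted in the difference. That choice by itself pushes the split toward smaller effects, so the split is only a description. Of the 157 genes called higher under CCS1477 and not under DMSO, 20 were called with a higher effect by that 2-fold rule. Of 232 called lower in the drug arm only, 18 were called with a lower effect. Over all tested genes these shares were 2.45% and 1.07%. Differences passing at an adjusted p alone were not counted for these genes. They were chosen by the CCS1477 effect, which enters the difference, so these counts are also only a description.

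**Figure D1:**
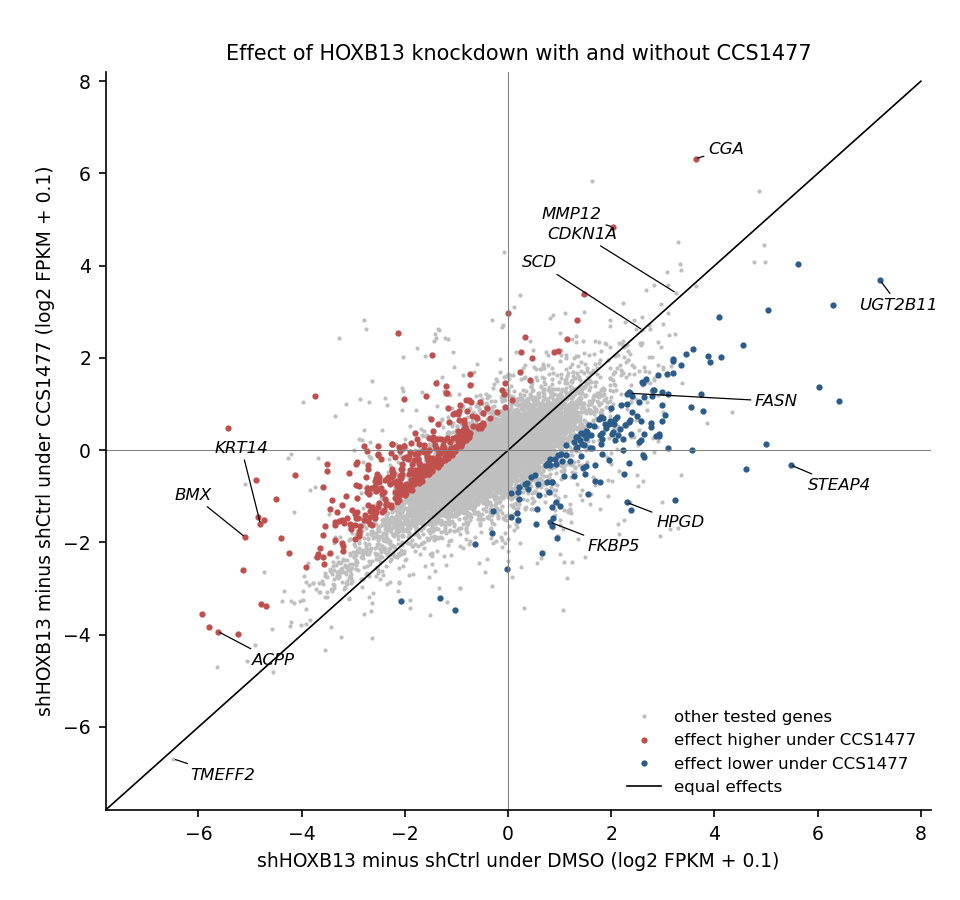
Each point is a gene, with the log2 effect of shHOXB13 under DMSO on the x axis and under CCS1477 on the y axis (FPKM + 0.1, 3 against 3 libraries each). Colored points are the 390 genes with a higher and the 171 with a lower effect under CCS1477 (adjusted p under 0.05, at least 2-fold), the line marks equal effects, and most colored points lie nearer to 0 on the y axis than on the x axis.

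Genes chosen in the separate knockdown series allow a description in genes that neither contrast selected. That series has no CCS1477 in its labels, so the choice favors genes that respond without the drug. That series called 807 genes higher (4.56% of 17678 tested) and 2546 lower (14.4%) with shHOXB13. Of the 807, 742 were tested here and 65 were too low. Their median effect was 0.78 under CCS1477 (quartiles 0.35 and 1.28) and 1.10 under DMSO (quartiles 0.56 and 1.80). Taken per shHOXB13 library against the shCtrl mean, the median under CCS1477 was 0.76, 0.82 and 0.80. Under CCS1477, 270 of the 742 genes (36.4%) were called higher and 3 lower, against 392 (52.8%) and 8 under DMSO. At an adjusted p under 0.05 and at least 2-fold, the difference of effects was lower with the drug for 106 of the 742 (14.3%). It was higher for 11 (1.48%), against 1.07% lower and 2.45% higher over all tested genes. Without the fold threshold it was lower for 160 (21.6%) and higher for 28 (3.77%), against 4.15% and 9.10% of all. The 2502 tested genes of the lowered group had medians of −0.78 under CCS1477 (quartiles −1.19 and −0.49) and −1.17 under DMSO (quartiles −1.73 and −0.79). Of these, 810 (32.4%) were called lower under CCS1477 and 1503 (60.1%) under DMSO. In both directions the median KD effect of these genes under the drug was nearer to 0 than without it. Genes that respond only under CCS1477 were left out by the choice, which can itself give such a difference.

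**Figure D2:**
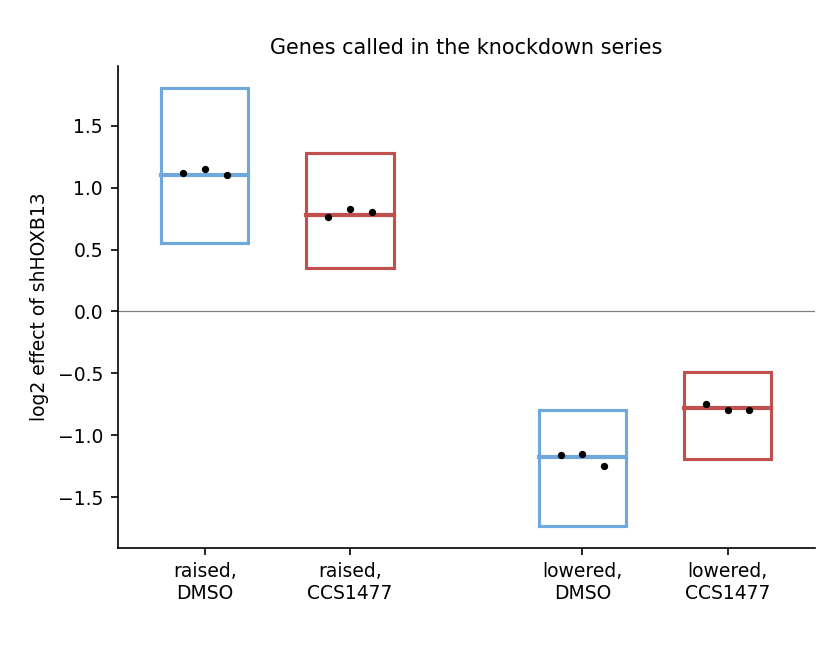
Log2 effect of shHOXB13 in the CCS1477 series over the genes called higher (742) or lower (2502) in the knockdown series. Boxes are quartiles over genes with the median as a line, black points are the medians of single shHOXB13 libraries against the shCtrl mean, and the medians run from 1.10 to 0.78 and from −1.17 to −0.78 between DMSO and CCS1477.

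*CGA*, the alpha subunit shared by the pituitary and placental glycoprotein hormones (chr6:87085498-87095106), showed the largest rise among genes above 1 FPKM. It was listed at 0.0997, 0.216 and 0.472 FPKM in shCtrl CCS1477 and 22.1, 26 and 31.7 FPKM in shHOXB13 CCS1477 (log2 6.32, SE 0.36, limma adjusted p = 1.2e-07). Its rise under DMSO was smaller (log2 3.63, limma adjusted p = 4.7e-06), and the difference of the effects passed (log2 2.69, SE 0.51, limma adjusted p = 0.0062). *CDKN1A*, the cell cycle inhibitor p21, went from 56.2, 66 and 54.9 FPKM to 658, 627 and 597 FPKM (log2 3.41, SE 0.10, limma adjusted p = 7.1e-10). The p21 libraries of the 2 groups were far apart, and the effect was of like size under DMSO (log2 3.25, difference 0.16, SE 0.14, limma adjusted p = 0.52). *CLU*, the secreted chaperone clusterin, rose from 7.51, 9.07 and 9.59 FPKM to 131, 129 and 137 FPKM (log2 3.92, SE 0.11, limma adjusted p = 7.1e-10). *NUDT8*, a mitochondrial nudix hydrolase gene, rose from 60.5, 46.9 and 52.1 to 725, 817 and 779.7 FPKM (log2 3.87), and *MUCL1*, a small mucin-like secreted protein, from 0.172, 0.186 and 0 to 2.69, 3.34 and 3.87 FPKM (log2 4.09). The T-box gene *TBX10* (log2 4.04) and the pseudogene *DOC2GP* (log2 5.61) next to *NUDT8* were also among the 12 largest rises, the latter listed at 0 in 2 shCtrl CCS1477 libraries. Others of the 12 were *MMP12*, *MMP13*, *UGT2B10*, *UGT2B11* and *UGT2B15*, described with their families.

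The largest fall was that of *TMEFF2* (chr2:191949043-192194933, minus strand), a transmembrane protein with follistatin-like and EGF-like domains that is abundant in prostate. It went from 47.4, 49 and 55.8 FPKM to 0.396, 0.283 and 0.521 FPKM (log2 −6.69, SE 0.25, limma adjusted p = 4.1e-09), with an effect of −6.49 under DMSO. *SYT4*, a synaptotagmin, fell from 63.1, 85.6 and 92.6 FPKM to 2.98, 3.04 and 3.78 FPKM (log2 −4.57, limma adjusted p = 1.3e-09). *RLN1*, which encodes a relaxin, fell from 11, 6.62 and 9.6 FPKM to 0.276, 0.142 and 0.257 FPKM (log2 −4.81, limma adjusted p = 6.4e-08). For all 3 genes the highest shHOXB13 library lay below the lowest shCtrl library, which the rule for choosing the largest falls required. *SLC30A4*, a zinc transporter, fell from 61.5, 68.2 and 73.7 FPKM to 2.33, 2.26 and 3.01 FPKM (log2 −4.70, limma adjusted p = 1.6e-09). The pseudogene *HMGN2P46* (1.79, 1.8 and 1.94 against 0.036, 0.0369 and 0 FPKM) overlaps *SLC30A4* on the opposite strand of chromosome 15, and reads were counted without strand, so reads of the pair cannot be told apart. *KCNN2*, a calcium-activated potassium channel (log2 −3.87), *DDC*, aromatic amino acid decarboxylase (log2 −4.05), *PTGFR*, the prostaglandin F receptor (log2 −3.81), and the long noncoding RNA *COLCA1* (log2 −4.34) also fell. *ACPP*, prostatic acid phosphatase, fell by less under CCS1477 than under DMSO (log2 −3.93 against −5.62, limma adjusted p of the difference 0.0018), as did *CAMK2N1*, an inhibitor of the kinase CaMKII (log2 −3.82 against −5.79, 0.00012). In shCtrl cells these 2 genes were already lower with CCS1477 than with DMSO, at 11.8 ± 2.09 against 83.4 ± 2.18 FPKM (mean ± SD) for *ACPP*. In bulk libraries, fewer cells of a type and less RNA per cell cannot be told apart.

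**Figure D3:**
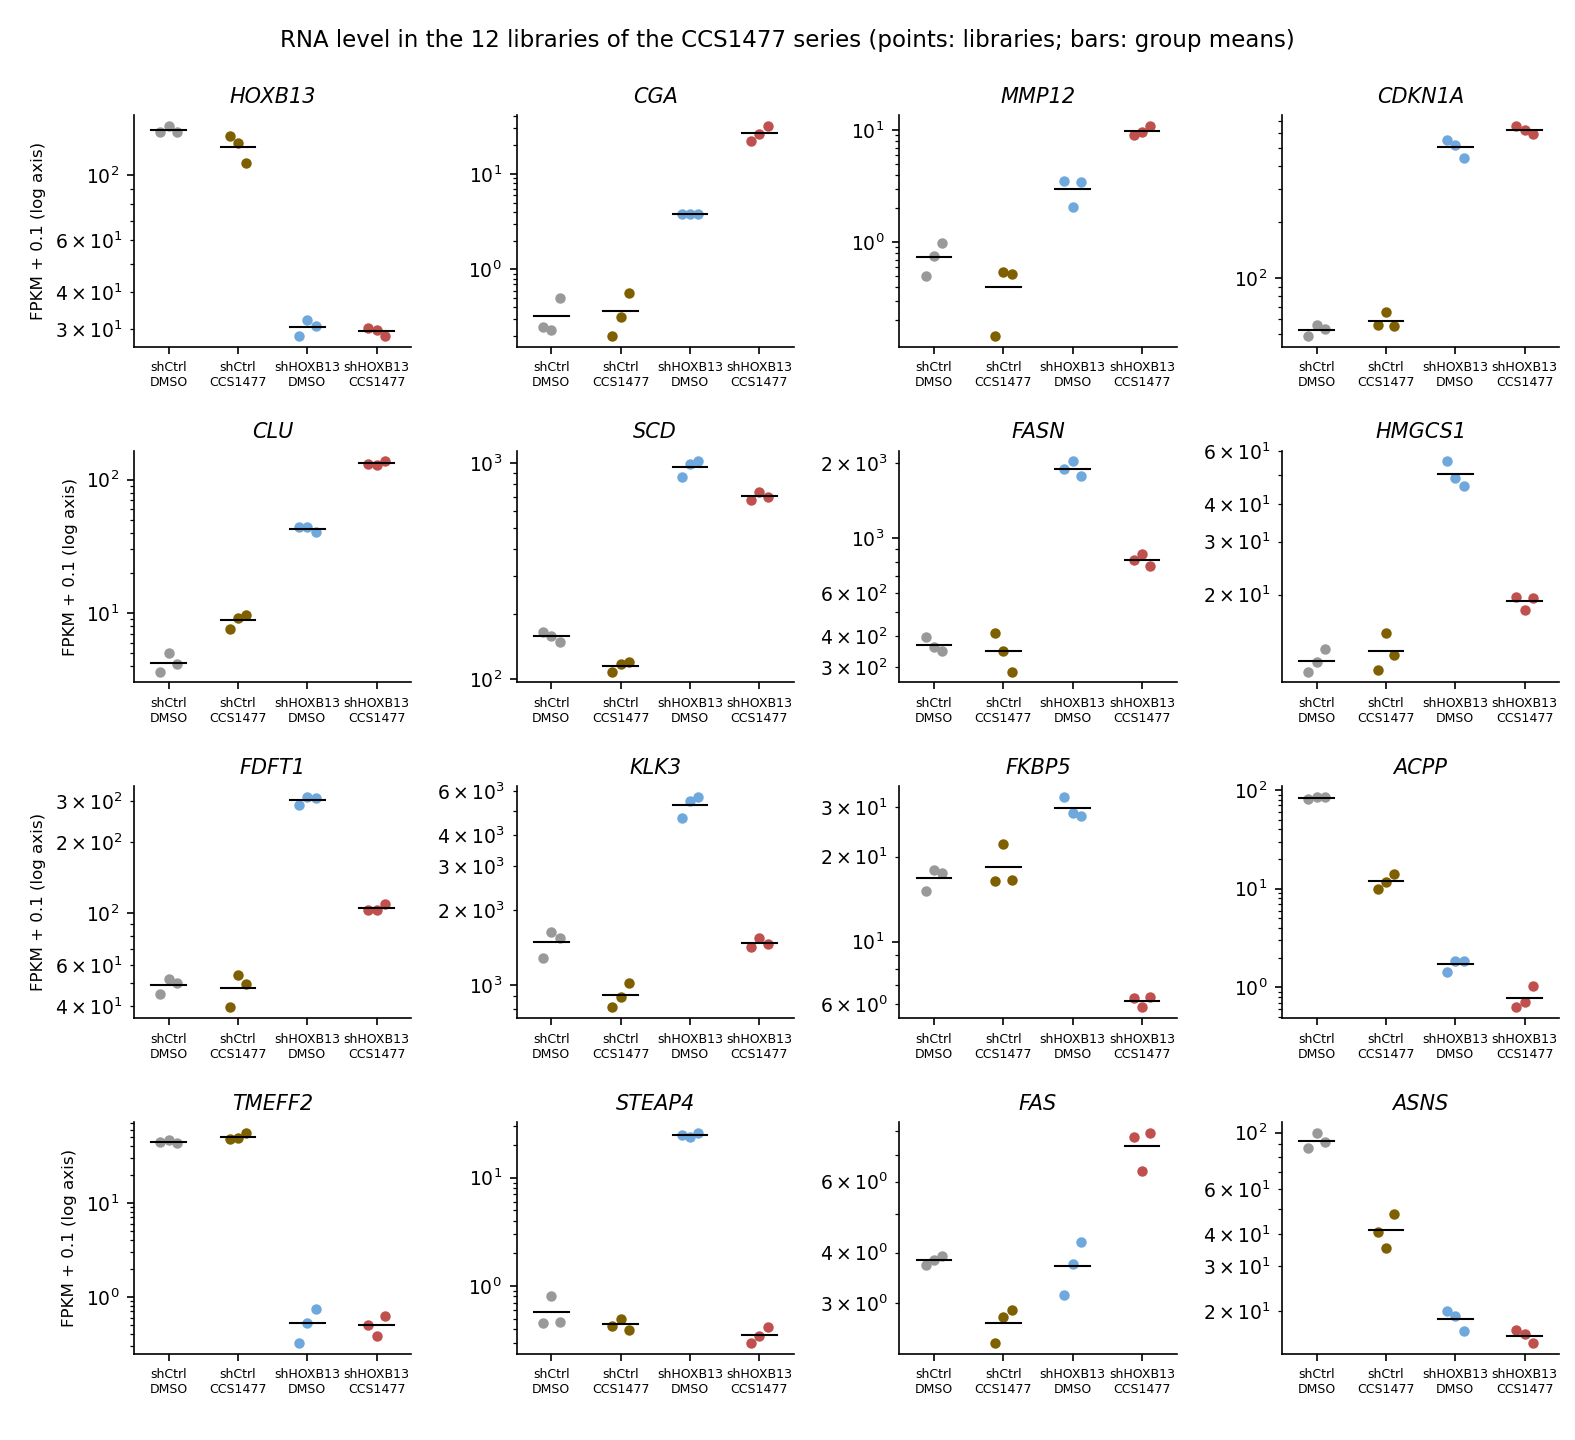
FPKM + 0.1 on log axes for 16 genes in the 12 libraries of the CCS1477 series, with points for libraries and bars for group means. *SCD*, *CDKN1A* and *TMEFF2* show shHOXB13 effects of like size with and without the drug, *STEAP4* is high only in shHOXB13 with DMSO, *FKBP5* falls under CCS1477 and rises under DMSO, and *FAS* differs more between shHOXB13 and shCtrl under CCS1477 than under DMSO.

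Fatty acid synthesis genes differed in how much of their DMSO response was seen under CCS1477. *FASN*, fatty acid synthase, stood at 413, 350.2 and 288 FPKM in shCtrl CCS1477 and 818, 859 and 773 FPKM in shHOXB13 CCS1477 (log2 1.23, SE 0.13, limma adjusted p = 1.5e-05). The rise was larger under DMSO (log2 2.36), and the difference passed (log2 −1.13, SE 0.18, limma adjusted p = 0.0026). *SCD*, which introduces the double bond of oleic acid, went from 108, 117 and 120.2 FPKM to 676, 737 and 696 FPKM (log2 2.61, SE 0.09, limma adjusted p = 1.7e-09), against 2.6 under DMSO (difference 0.01, SE 0.12). *SREBF1*, which encodes SREBP-1, likewise rose from 148, 135 and 138 FPKM to 441, 472 and 461 FPKM (log2 1.70, SE 0.09, limma adjusted p = 6.2e-08), with a difference from its DMSO effect of 0.06 (SE 0.13). Thus *FASN* responded less with the drug, and for *SCD* and *SREBF1* no difference was detected. *ACACA*, the acetyl-CoA carboxylase that commits carbon to fatty acids (log2 0.47 against 1.34 under DMSO), and *ACLY*, ATP citrate lyase (log2 0.28 against 0.84), rose by less than under DMSO, with differences that passed. The elongase *ELOVL1* rose (log2 0.74) and *ELOVL7* fell (log2 −1.53). Of 22 tested members of the fatty acid synthesis list, 8 rose and 5 fell at an adjusted p under 0.05 (median 0.17), where 12% of all tested genes rose and 30.9% fell at that threshold. Under DMSO 11 rose and 6 fell (median 0.33), where 15.2% of all genes rose and 42.4% fell. The effect was lower with the drug for 6 and higher for 3, against 4.15% and 9.10% of all genes. These shares of all tested genes are the comparison for every list below. With median-of-ratios scaling 10 rose and 1 fell under CCS1477 (median 0.38), and the effect was lower with the drug for 7 and higher for 1. Of 23 listed members *ELOVL2* was too low to test.

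Long-chain acyl-CoA synthetases, which activate fatty acids for use, split by isoform. *ACSL1* rose from 51.3, 54.5 and 64.6 FPKM to 174, 185 and 181 FPKM (log2 1.67, limma adjusted p = 5.4e-08), and *ACSL3* from 75.6, 97.3 and 97.3 FPKM to 259, 261 and 262 FPKM (log2 1.54, limma adjusted p = 2.6e-07). Both rises were smaller than under DMSO (differences −0.56 and −1.13, limma adjusted p = 0.012 and 0.00056). *ACSL6* rose at a low level (0.905 ± 0.0756 to 2.89 ± 0.235 FPKM), and *ACSL4* (log2 −1.21) and *SLC27A2* (log2 −0.62) fell. In all, 5 of 16 members rose and 4 fell (median 0.08), as against 6 and 7 under DMSO (median −0.06). With median-of-ratios scaling the DMSO counts turned to 8 and 5 (median 0.28), and those under CCS1477 were 6 and 4 (median 0.29).

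The mevalonate pathway, which makes the isoprenoid precursors of cholesterol, had a median KD effect of 0.60 under DMSO and 0.00 under CCS1477. *HMGCS1*, which makes HMG-CoA, stood at 11.2, 14.8 and 12.5 FPKM in shCtrl CCS1477 and 19.6, 17.7 and 19.4 FPKM in shHOXB13 CCS1477 (log2 0.56, SE 0.11, limma adjusted p = 0.0016), against 12 ± 1.07 and 50.03 ± 4.78 FPKM under DMSO (log2 2.05). *FDFT1*, squalene synthase, went from 39.3, 54.4 and 49.5 FPKM to 102, 103 and 109 FPKM (log2 1.14, against 2.63 under DMSO). *IDI1*, isopentenyl diphosphate isomerase, rose by 0.55 under CCS1477 and 1.57 under DMSO. The 3 rises passed in both arms, and each was smaller with the drug (log2 −1.49, SE 0.15, limma adjusted p = 0.00018 for *HMGCS1*, log2 −1.49, SE 0.15, limma adjusted p = 0.00014 for *FDFT1*, log2 −1.02, SE 0.17, limma adjusted p = 0.0030 for *IDI1*). *MVK*, *MVD* and *FDPS* did not pass under CCS1477 (log2 −0.13, −0.11 and −0.14), and *PMVK* fell (log2 −0.64). Over the 10 members 3 rose and 2 fell, against 7 and 0 under DMSO, and the effect was lower with the drug for 7 and higher for 0. With median-of-ratios scaling 5 rose and 1 fell under CCS1477 (median 0.22).

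In the sterol branch further down 6 of 12 members rose. *DHCR7*, which carries out a late step of cholesterol synthesis, rose from 72.1, 78.7 and 82.2 to 138, 144 and 136 FPKM (log2 0.84). *TM7SF2*, a sterol reductase, rose by 1.12 (limma adjusted p = 2.1e-06), and *MSMO1*, a sterol oxidase, by 0.76. In all 6 rose and 1 fell (median 0.23), against 9 and 1 under DMSO (median 0.48), and the effect was lower with the drug for 2 and higher for 1, *LBR*. With median-of-ratios scaling 8 rose and 0 fell under CCS1477, and the effect was lower with the drug for 5. Of the SREBP pathway genes, *INSIG1*, which retains SREBP in the endoplasmic reticulum, *SCAP*, its escort, and *SREBF2* did not pass under CCS1477 (log2 0.17, 0.12 and 0.10) and rose under DMSO (log2 1.28, 0.78 and 0.56). For these 3 genes the difference of the effects passed (limma adjusted p = 0.00021, 0.0013 and 0.0073). With median-of-ratios scaling small rises passed for them under CCS1477 too (log2 0.39, 0.33 and 0.31). The site-2 protease gene *MBTPS2* rose only slightly (log2 0.50, limma adjusted p = 0.0035). In all 4 of 11 members rose and 0 fell (median 0.12), against 5 and 1 under DMSO (median 0.50), and with median-of-ratios scaling 7 and 0 against 8 and 0.

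**Figure D4:**
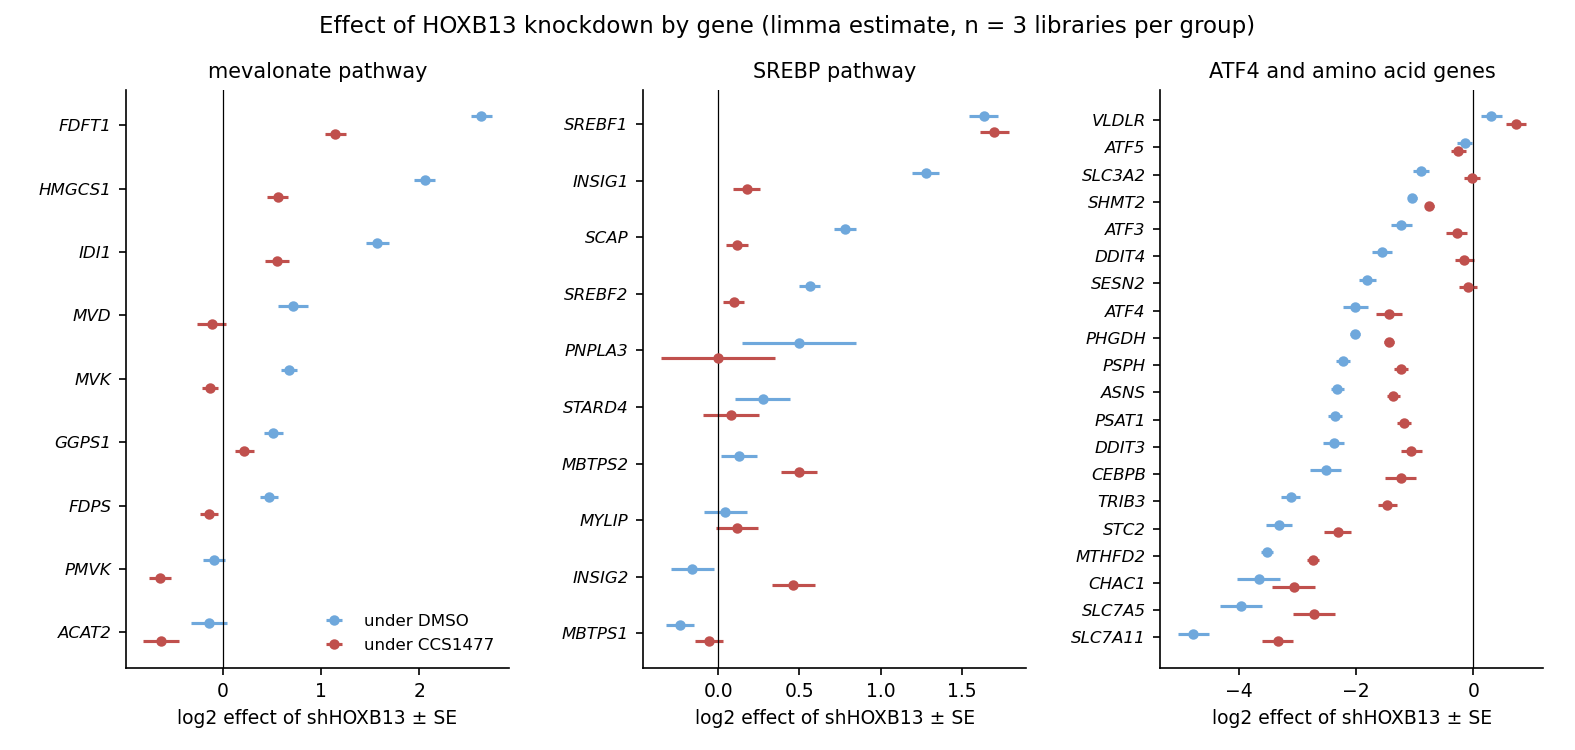
Log2 effect of shHOXB13 under DMSO and under CCS1477 with the limma standard error for members of the mevalonate, SREBP and ATF4 lists, genes ordered by the DMSO effect. *SREBF1* lies at 1.64 and 1.70, *HMGCS1*, *FDFT1* and *IDI1* move toward 0 with the drug, and most ATF4 genes stay below 0 and move up.

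Triglyceride and lipid droplet genes were mixed, with 7 of 16 tested members higher and 3 lower (median 0.14). *LPIN1*, a phosphatidate phosphatase (log2 0.86), *MGLL*, monoglyceride lipase (log2 0.89), *DGAT1*, which makes triglyceride (log2 0.53), and the droplet protein *PLIN4* (log2 1.09) rose, and *PLIN2*, a lipid droplet coat protein at a low level here, fell from 0.401, 0.174 and 0.342 FPKM to 0.0991, 0.0339 and 0.123 FPKM (log2 −1.12, limma adjusted p = 0.027, and 0.055 with median-of-ratios scaling). Of 22 fatty acid oxidation genes 9 rose and 3 fell (median 0.22), or 15 and 3 with median-of-ratios scaling (median 0.43). The very-long-chain dehydrogenase *ACADVL* (log2 0.68) and the trifunctional protein gene *HADHA* (log2 0.47) rose, and the peroxisomal *EHHADH* (log2 −1.66) and the mitochondrial thiolase gene *ACAA2* (log2 −0.96) fell. The list of 45 fatty-acyl-CoA genes that the study drew from its own enhancer data had 13 of 41 tested members higher and 10 lower (median 0.08), or 17 and 5 with median-of-ratios scaling (median 0.29). That list was chosen in the same study, so it is not independent evidence of a direction. One of its members, *XBP1*, a transcription factor of the secretory pathway, rose from 91.6, 85.2 and 119 to 459, 513 and 507 FPKM (log2 2.33, limma adjusted p = 7.6e-08).

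Glucuronidation genes, which inactivate androgens and other steroids by adding glucuronic acid, rose strongly under the drug. *UGT2B15* was at 1.38, 1.75 and 2.52 FPKM in shCtrl CCS1477 and 37.3, 43.5 and 45.7 FPKM in shHOXB13 CCS1477 (log2 4.45, SE 0.18, limma adjusted p = 5.9e-09). *UGT2B11* went from 4.38, 4.1 and 5.31 FPKM to 59.2, 57.7 and 62.6 FPKM (log2 3.68) and *UGT2B28* from 1.79, 1.44 and 1.39 FPKM to 13.3, 15.6 and 14.3 FPKM (log2 3.15). The rises of the latter genes were far larger under DMSO (log2 7.21 and 6.30), and both differences passed (log2 −3.53, SE 0.16, limma adjusted p = 5.8e-07 and log2 −3.15, SE 0.15, limma adjusted p = 6.8e-07). Both cell groups entered the *UGT2B11* difference. Its shCtrl level was higher with CCS1477 than with DMSO (4.60 ± 0.634 against 1.07 ± 0.192 FPKM, mean ± SD). Its shHOXB13 level was lower (59.8 ± 2.51 against 172 ± 5.67 FPKM). *UGT2B10* rose to 4.18, 4.14 and 4.21 FPKM (log2 4.04) and *UGT2B17* to 25.7, 27 and 28.6 FPKM (log2 2.51). Of 9 tested members 8 rose, and *UGDH*, which supplies the glucuronic acid donor, fell (log2 −1.02). The list median was 3.03, against 4.95 under DMSO. UGT2B genes are close paralogs and UGT1A genes share exons, so reads may be split among them, and 5 UGT1A genes were too low to test.

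Androgen response genes fell in larger number under the drug than without it. *FKBP5*, an androgen-induced chaperone, fell from 16.2, 22.1 and 16.4 FPKM to 6.2, 5.75 and 6.27 FPKM (log2 −1.56, limma adjusted p = 1.2e-06) and rose under DMSO (log2 0.82, limma adjusted p = 0.00011), with a difference of −2.38 (limma adjusted p = 1.1e-05). The groups did not overlap under CCS1477. *SLC45A3* (log2 −2.67), *PMEPA1* (log2 −1.97), *ABCC4* (log2 −1.70) and *TMPRSS2* (log2 −0.96) fell as well. *KLK3*, which encodes prostate-specific antigen, rose from 813, 893 and 1018 FPKM to 1422, 1538 and 1463 FPKM (log2 0.70, SE 0.14, limma adjusted p = 0.0019), less than under DMSO (log2 1.83, difference −1.13, limma adjusted p = 0.0045). *KLK2* rose slightly (log2 0.35, limma adjusted p = 0.0082) and *KLK4* fell under CCS1477 (log2 −0.69) and rose under DMSO (log2 0.76, limma adjusted p of the difference 2.1e-05). Of 25 tested members 3 rose and 16 fell under CCS1477 (median −0.75), against 8 and 11 under DMSO (median −0.27). The effect was lower with the drug for 12 and higher for 5, and with median-of-ratios scaling for 15 and 2. That scaling gave 4 higher and 16 lower under CCS1477 and turned the DMSO counts to 11 and 10 (median 0.08).

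Other luminal genes moved in both directions. *AGR2*, a protein disulfide isomerase of secretory cells, was at 7.02, 9.08 and 7.86 FPKM in shCtrl CCS1477 and 16.4, 18.8 and 20.8 FPKM in shHOXB13 CCS1477 (log2 1.21, limma adjusted p = 2.8e-06), against a DMSO rise of 3.74 (difference −2.53, SE 0.15, limma adjusted p = 2.0e-06). *GATA2* fell (log2 −0.92), and *KRT8* and *KRT18* did not pass under CCS1477 (log2 0.62, limma adjusted p = 0.12 and log2 0.38, limma adjusted p = 0.12) with the shCtrl library numbered 1 high in both (194, 108 and 95.3 FPKM for *KRT8*), and *KRT18* passed with median-of-ratios scaling (log2 0.59). Of 16 secretory luminal members 4 rose and 4 fell (median 0.19), against 9 and 5 under DMSO (median 0.57). With median-of-ratios scaling 7 rose and 2 fell under CCS1477 (median 0.40). Of 12 tested androgen synthesis and reduction genes 3 rose and 2 fell, among them the steroid sulfatase *STS* (log2 0.88) and *AKR1C3*, an enzyme of testosterone synthesis (log2 1.17). Their median of −0.08 turned to 0.08 with median-of-ratios scaling.

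Matrix metalloproteinases (MMPs), enzymes that cut extracellular matrix, included some of the largest rises under the drug. *MMP12* (chr11:102862736-102874982), macrophage elastase, was at 0.0448, 0.437 and 0.424 FPKM in shCtrl CCS1477 and 9.01, 9.47 and 10.9 FPKM in shHOXB13 CCS1477 (log2 4.84, SE 0.45, limma adjusted p = 5.8e-06). *MMP13* (chr11:102942995-102955732), a collagenase, went from 0.0619, 0.268 and 0.732 FPKM to 7.44, 9.02 and 8.64 FPKM (log2 4.52, SE 0.43, limma adjusted p = 6.9e-06), and *MMP10* (chr11:102770502-102780628), a stromelysin, from 0.0957, 0.207 and 0.136 FPKM to 2.17, 2.75 and 2.4 FPKM (log2 3.38, SE 0.21, limma adjusted p = 2.4e-07). The 3 genes lie within the same cluster on chromosome 11, and their groups did not overlap. For *MMP12* and *MMP13* the absence of overlap was a condition for standing among the largest rises. The effect was larger under CCS1477 than under DMSO for *MMP12* (log2 2.81, SE 0.64, limma adjusted p = 0.015) and *MMP10* (log2 1.91, SE 0.30, limma adjusted p = 0.0022), and *MMP13* was not shown to differ (log2 1.23, SE 0.61, limma adjusted p = 0.21), though without shCtrl CCS1477 replicate 3 it was (log2 1.82). For *MMP10* the shHOXB13 level was about the same with CCS1477 and DMSO (2.44 ± 0.293 and 3.11 ± 0.474 FPKM), and the shCtrl level was lower with CCS1477 (0.146 ± 0.0564 against 1.06 ± 0.223 FPKM). For *MMP12* the shHOXB13 level was higher with CCS1477 than with DMSO (9.78 ± 0.969 against 2.91 ± 0.834 FPKM). Its shCtrl level was 0.302 ± 0.223 FPKM with CCS1477 and 0.645 ± 0.248 FPKM with DMSO. *MMP7*, in the same region of the chromosome, was at 0, 0.0814 and 0.213 FPKM in shCtrl and 0.557, 0.318 and 0.154 FPKM in shHOXB13 cells, with overlapping libraries and an adjusted p just over the threshold (log2 1.21, SE 0.45, limma adjusted p = 0.0503), which passed with median-of-ratios scaling (log2 1.30, limma adjusted p = 0.034) and without shCtrl CCS1477 replicate 3 (log2 1.61) or shHOXB13 CCS1477 replicate 3 (log2 1.55). *MMP16*, a membrane-type MMP, fell from 19.9, 21.3 and 25.1 FPKM to 0.908, 1.18 and 1.18 FPKM (log2 −4.22, limma adjusted p = 1.1e-09). Of 10 tested MMPs 4 rose and 1 fell (median 0.48), against 3 and 4 under DMSO (median −0.12), and the effect was higher with the drug for 6 and lower for 0. With median-of-ratios scaling 6 rose and 1 fell under CCS1477, 4 and 4 under DMSO (median 0.12), and the effect was higher for 4, *MMP16* no longer among them. Another 7 were too low to test, *MMP9* among them.

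The inhibitor *TIMP2* rose from 28.9, 26.9 and 33.5 FPKM to 59.1, 64 and 66.1 FPKM (log2 1.08, limma adjusted p = 2.7e-06). *TIMP3* and the membrane-bound inhibitor *RECK* passed narrowly (limma adjusted p = 0.023 and 0.037), and without shCtrl CCS1477 replicate 1 or 2 neither did (*TIMP3* log2 0.94 or 1.05, *RECK* 0.33 or 0.56). *RECK* also did not pass without shHOXB13 CCS1477 replicate 1 or 3 (log2 0.47 or 0.50). *TIMP1* was listed at 0 in all 3 shCtrl libraries and at 0.303, 0 and 0.282 FPKM in shHOXB13 CCS1477, and did not pass (log2 1.31, limma adjusted p = 0.053), though it did without shHOXB13 CCS1477 replicate 2 (log2 1.97), without shHOXB13 DMSO replicate 3 (log2 1.31) and with log2(FPKM + 1) (log2 0.25). In all 3 of 4 tested inhibitors rose and 0 fell (median 1.09). Integrins and laminins, receptors for and parts of the basement membrane, had 11 of 16 tested members higher and 1 lower (median 0.62), against 8 and 3 under DMSO (median 0.56). *LAMA3* rose from 16, 19 and 18.1 to 53, 52 and 49.2 FPKM (log2 1.54), *ITGA5* from 8.1, 8.65 and 10.9 to 24.9, 25.9 and 26.8 FPKM (log2 1.49) and *ITGA3* from 3.63, 3.22 and 3.91 to 8.45, 9.5 and 8.01 FPKM (log2 1.25).

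Regulators and markers of the epithelial-mesenchymal transition (EMT) fell on both its sides. *SNAI1*, a repressor of E-cadherin, went from 0.543, 0.854 and 0.56 FPKM to 0.203, 0.25 and 0.252 FPKM (log2 −1.15, limma adjusted p = 0.0019), and *VIM*, vimentin, from 2.84, 3.2 and 3.17 FPKM to 1.85, 2.06 and 1.29 FPKM (log2 −0.81, limma adjusted p = 0.0027). *CDH1*, which encodes E-cadherin, rose from 116, 139 and 151 FPKM to 239, 242 and 234 FPKM (log2 0.82, SE 0.09, limma adjusted p = 3.3e-05). *SNAI2* stood at 0.319, 0.302 and 0.491 FPKM and 0.23, 0.202 and 0.123 FPKM (limma adjusted p = 0.032, and 0.091 with median-of-ratios scaling), and did not pass without shCtrl CCS1477 replicate 3 (log2 −0.55) or shHOXB13 CCS1477 replicate 2 or 3 (log2 −0.77 or −0.55). *ZEB1* was too low to test. Regulators of the epithelial state that stand in the same list, *OVOL1* (log2 −0.70), *OVOL2* (log2 −0.81), *GRHL2* (log2 −0.36), *ESRP1* (log2 −0.38) and *ESRP2* (log2 −0.44), were among the falls, though *OVOL1*, *GRHL2* and *ESRP1* did not pass with median-of-ratios scaling (log2 −0.50, −0.14 and −0.17). Of 11 tested members 1 rose and 10 fell (median −0.72), and with median-of-ratios scaling 1 and 6, and under DMSO 1 rose and 8 fell (median −0.83).

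Proliferation genes fell as groups. All 20 members of the DNA replication list fell under CCS1477 (median −1.90) and under DMSO (median −1.99), and all 21 mitosis genes fell in both (medians −2.62 and −3.21). *MCM2*, a subunit of the replicative helicase, went from 39.8, 43.8 and 37.3 FPKM to 7.31, 7.79 and 8.4 FPKM (log2 −2.35, SE 0.10, limma adjusted p = 7.9e-09) and *MCM7* from 46.5, 56.6 and 47.1 FPKM to 12.3, 12.7 and 12.2 FPKM (log2 −2.00, limma adjusted p = 2.0e-08). *RRM2*, the ribonucleotide reductase subunit, also fell (log2 −2.67), as did *E2F1*, a transcription factor of S-phase genes (log2 −2.13). *CCNB2*, a mitotic cyclin, went from 30.9, 37.7 and 33 FPKM to 4.79, 4.77 and 4.28 FPKM (log2 −2.85, SE 0.09, limma adjusted p = 1.1e-09), *CENPF*, a kinetochore protein, from 12.8, 17.7 and 16.6 FPKM to 2.26, 2.29 and 2.27 FPKM (log2 −2.72, limma adjusted p = 2.9e-08), and *BIRC5*, survivin, fell too (log2 −2.97). The libraries did not overlap between the groups for any of these genes. The effect was higher with the drug, that is a smaller fall, for 5 mitosis genes (*CCNB2*, *KIF23*, *TOP2A*, *TTK* and *UBE2C*) and 2 replication genes (*CDC45* and *CDT1*, the latter not with median-of-ratios scaling), and lower for 0 of either list. Over all tested genes the effect was higher for 9.10% and lower for 4.15%, so 2 of 20 replication genes is near the general share. Among CDK inhibitors and D cyclins 1 of 9 tested members rose, *CDKN1A*, and 4 fell, *CDKN2C* (log2 −1.69), *CDKN2A* (log2 −1.09), *CDKN2D* (log2 −0.73) and *CDKN1B* (log2 −0.22). Their median was −0.08, and with median-of-ratios scaling it was 0.13, with 3 higher and 3 lower, *CDKN1B* no longer among them (log2 −0.01).

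Promoters of these genes are shown because their members moved together. Each is 250 bases before to 50 after the RefSeq start (GRCh38.p14), 5′ to 3′ on the gene's strand, in lower case with the matched letters in capitals. For the replication genes the capitals mark E2F letters (TTTCCCGC, TTTGGCGC or TTTCGCGC on either strand), and in *MCM2* the forward and reverse matches overlap.
MCM2 (chr3:127598161-127598460, plus strand): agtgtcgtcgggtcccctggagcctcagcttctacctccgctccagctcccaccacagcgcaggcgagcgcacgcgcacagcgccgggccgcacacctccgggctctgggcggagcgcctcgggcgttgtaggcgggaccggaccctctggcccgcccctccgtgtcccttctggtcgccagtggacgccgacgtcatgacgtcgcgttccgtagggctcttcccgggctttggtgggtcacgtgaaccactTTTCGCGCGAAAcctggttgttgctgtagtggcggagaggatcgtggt
MCM7 (chr7:100101348-100101647, minus strand): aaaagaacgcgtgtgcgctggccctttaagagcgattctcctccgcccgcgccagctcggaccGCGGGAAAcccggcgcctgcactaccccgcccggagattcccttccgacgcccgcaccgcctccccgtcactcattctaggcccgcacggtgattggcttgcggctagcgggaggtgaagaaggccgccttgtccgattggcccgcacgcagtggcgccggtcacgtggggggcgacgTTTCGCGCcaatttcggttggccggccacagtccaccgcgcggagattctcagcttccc
For the mitosis genes the capitals mark the cell cycle homology region letters (TTTGAA on either strand).
CCNB2 (chr15:59104896-59105195, plus strand): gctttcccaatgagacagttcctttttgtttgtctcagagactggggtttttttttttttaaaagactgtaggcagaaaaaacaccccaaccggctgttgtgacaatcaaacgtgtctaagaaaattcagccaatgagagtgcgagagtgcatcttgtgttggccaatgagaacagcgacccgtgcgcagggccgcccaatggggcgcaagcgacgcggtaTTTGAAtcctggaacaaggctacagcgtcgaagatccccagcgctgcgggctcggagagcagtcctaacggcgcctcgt
CENPF (chr1:214602945-214603244, plus strand): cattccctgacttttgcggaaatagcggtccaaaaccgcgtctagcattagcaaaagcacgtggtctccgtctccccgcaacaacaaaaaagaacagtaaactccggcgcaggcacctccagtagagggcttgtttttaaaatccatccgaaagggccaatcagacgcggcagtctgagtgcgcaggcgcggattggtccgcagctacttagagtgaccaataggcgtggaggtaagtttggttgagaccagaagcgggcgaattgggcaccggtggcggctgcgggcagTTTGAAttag
The E2F letters were in 12 of the 17 replication promoters found in the table (70.6%), in 7.93% of the 946 promoters of genes lower under CCS1477, in 2.05% of the 292 of genes higher, and in 4.42% of all 11911 promoters of tested genes (2.79% of all 27305). TTTGAA was in 11 of 16 mitosis promoters (68.8%), 18.7% of the lower, 13.0% of the higher and 9.76% of all tested genes (15.4% of all). The HOXB13 letters CCAATAAA were in 0.342% of promoters of higher, 0.317% of lower and 0.714% of all tested genes. A match is a description of the letters and not a binding site.

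Amino acid synthesis and transport genes controlled by ATF4, a transcription factor of the integrated stress response, fell under the drug by less than without it. *ASNS*, asparagine synthetase, stood at 40.7, 35.1 and 48 FPKM in shCtrl CCS1477 and 16.7, 16.1 and 14.9 FPKM in shHOXB13 CCS1477 (log2 −1.36, SE 0.11, limma adjusted p = 2.0e-06), against 92.7 ± 6.72 and 18.5 ± 1.72 FPKM under DMSO (log2 −2.32, difference log2 0.96, SE 0.16, limma adjusted p = 0.0029). The shHOXB13 levels of *ASNS* were close in the 2 arms, and the shCtrl level was lower with the drug. *MTHFD2*, of mitochondrial folate metabolism, went from 59, 47.6 and 60.1 FPKM to 7.89, 9.24 and 7.5 FPKM (log2 −2.74), *PHGDH*, the first enzyme of serine synthesis, from 190.0, 171 and 178 FPKM to 69.8, 65.1 and 63.1 FPKM (log2 −1.44), and *SLC7A11*, the cystine transporter, from 12.4, 6.84 and 17.9 FPKM to 0.991, 0.936 and 1.23 FPKM (log2 −3.34). *SESN2* and *DDIT4*, which restrain mTORC1, did not pass under CCS1477 (log2 −0.09, limma adjusted p = 0.66 and log2 −0.15, limma adjusted p = 0.49) and fell under DMSO (log2 −1.81 and −1.56), with differences that passed (limma adjusted p = 0.00054 and 0.0032). Of 20 members 1 rose and 14 fell (median −1.24), against 0 and 18 under DMSO (median −2.27), and the effect was higher with the drug for 13 and lower for 0. In most of these genes the shCtrl CCS1477 library numbered 2 was the lowest of its group. The *ASNS* promoter is shown for its TGATGNAA letters, in capitals, the amino acid response element through which ATF4 is known to act on this gene.
ASNS (chr7:97872359-97872658, minus strand): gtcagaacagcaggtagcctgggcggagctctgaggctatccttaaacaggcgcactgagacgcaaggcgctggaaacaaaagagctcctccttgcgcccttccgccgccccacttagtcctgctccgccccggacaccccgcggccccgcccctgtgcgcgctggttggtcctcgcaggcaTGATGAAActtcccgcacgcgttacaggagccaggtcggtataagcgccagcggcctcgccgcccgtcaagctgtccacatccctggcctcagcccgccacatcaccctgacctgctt
These letters were in 4 of 17 promoters of the list (23.5%: *ASNS*, *ATF3*, *CHAC1* and *SLC3A2*) and in 1.81% of those of all tested genes (3.67% of all 27305). The sterol regulatory letters TCACNCCAC were in 0 of 7 mevalonate and 1 of 9 SREBP pathway promoters (*SREBF2*) and in 1.09% of those of tested genes. All motifs were searched on both strands.

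**Figure D5:**
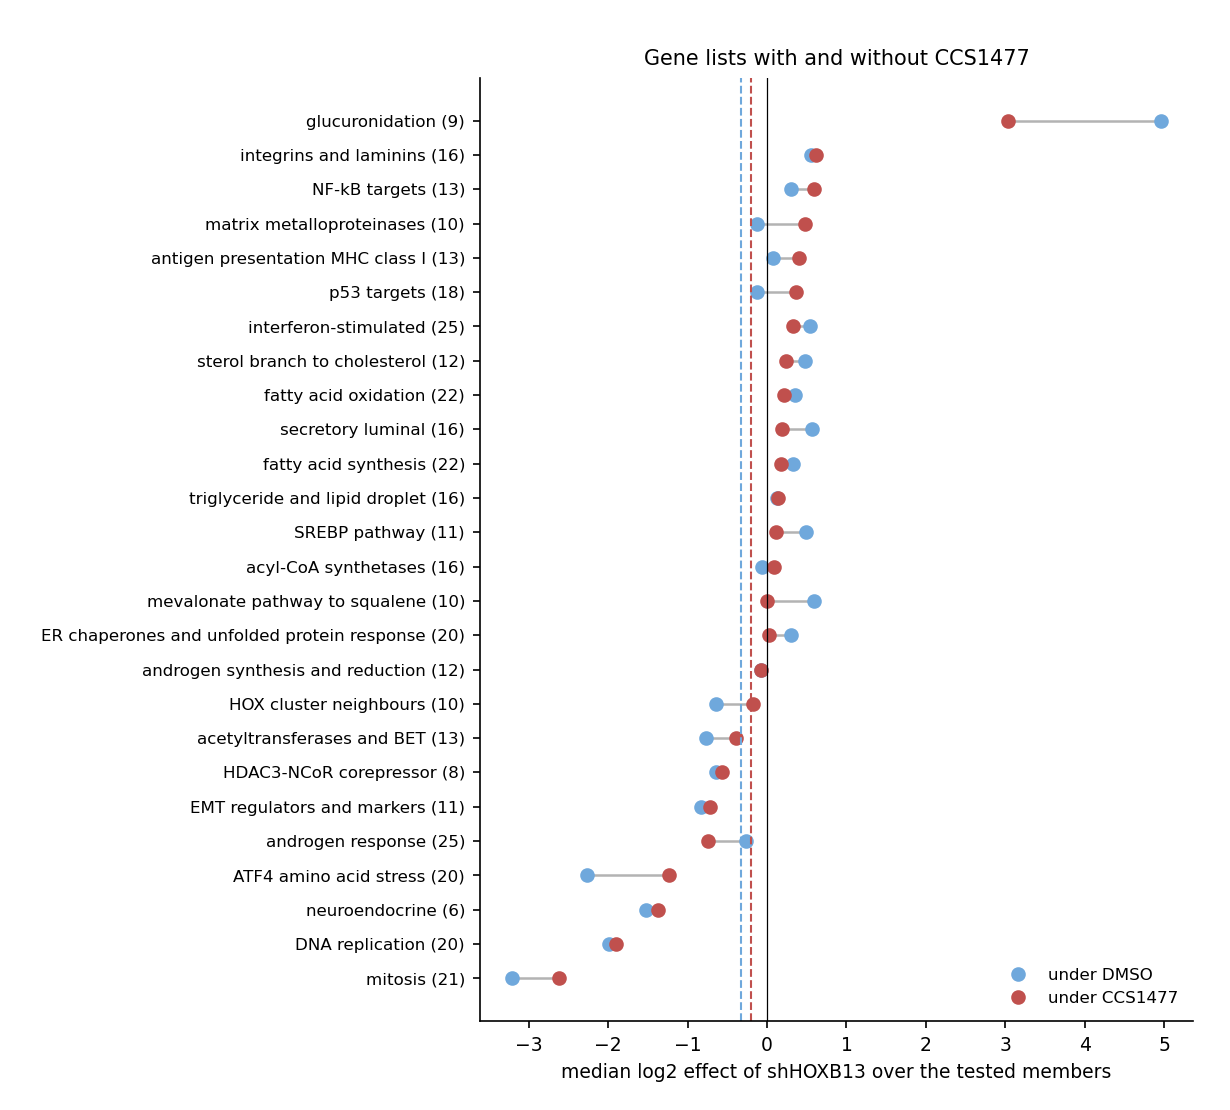
Median log2 effect of shHOXB13 over the tested members of 26 gene lists (number tested in parentheses) under DMSO and CCS1477, with dashed lines for the medians over all tested genes (−0.33 and −0.20). Glucuronidation lies highest and mitosis lowest in both arms, p53 targets and matrix metalloproteinases move from −0.13 and −0.12 to 0.37 and 0.48, and with median-of-ratios scaling both androgen synthesis medians and the DMSO medians of p53 targets (0.21), matrix metalloproteinases (0.12), acyl-CoA synthetases (0.28) and the androgen response (0.08) turn from negative to positive.

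Genes activated by p53, the stress-induced tumor suppressor that also induces *CDKN1A*, had higher KD effects under the drug than without it. *FAS*, a death receptor, stood at 2.28, 2.67 and 2.78 FPKM in shCtrl CCS1477 and 7.63, 6.29 and 7.84 FPKM in shHOXB13 CCS1477 (log2 1.45, SE 0.13, limma adjusted p = 5.2e-06), against no passing change under DMSO (log2 −0.06, difference log2 1.51, SE 0.19, limma adjusted p = 0.00062). *RRM2B*, the p53-induced ribonucleotide reductase subunit, went from 20.2, 24.9 and 22.2 FPKM to 39.8, 36 and 37.7 FPKM (log2 0.76, limma adjusted p = 2.4e-05) with a DMSO effect of 0.02. *GDF15*, a secreted stress cytokine, rose from 1063, 628 and 1046 FPKM to 2486, 2706 and 2743 FPKM (log2 1.57, limma adjusted p = 7.0e-05), and *MDM2* rose slightly (log2 0.33, limma adjusted p = 0.0029). Of 18 members 11 rose and 3 fell (median 0.37), against 4 and 8 under DMSO (median −0.13), and the effect was higher with the drug for 10 and lower for 0, or 10 and 1 with median-of-ratios scaling. That scaling gave 13 higher and 0 lower under CCS1477 and turned the DMSO counts to 8 and 4 (median 0.21). In shHOXB13 cells the list summed to 2894 to 3146 FPKM with CCS1477 and 3138 to 3432 FPKM with DMSO. The shCtrl sums were lower with the drug, at 944 to 1363 against 1607 to 2073 FPKM. Abundant genes such as *GDF15* weigh most in these sums. Of 20 endoplasmic reticulum chaperone and unfolded protein response genes 2 rose and 6 fell (median 0.03), against 11 and 3 under DMSO (median 0.30). *HSPA5*, which encodes BiP, did not pass under CCS1477 (log2 0.17, limma adjusted p = 0.15, though it passed with median-of-ratios scaling, log2 0.39) and its effect was lower than under DMSO (difference −0.997, limma adjusted p = 0.00066). *PDIA4* and *SDF2L1* fell (log2 −0.59 and −0.57) and *SYVN1* rose (log2 0.47). With median-of-ratios scaling this list had 8 higher and 4 lower, against 16 and 1 under DMSO.

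Antigen presentation genes of MHC class I had 8 of 13 members higher and 0 lower under CCS1477 (median 0.41), against 3 and 2 under DMSO (median 0.08). With median-of-ratios scaling the counts were 8 and 0 against 7 and 0 (medians 0.61 and 0.41), and the difference of effects was higher for 0 and lower for 1 member, so the contrast between the arms depended on the scale. *TAPBP*, tapasin, rose from 5.13, 4.01 and 4.37 FPKM to 11.4, 11.3 and 11.6 FPKM (log2 1.33, limma adjusted p = 1.8e-06), *HLA-B* by 0.75, *HLA-E* by 0.68, and *B2M*, the class I light chain, from 84.5, 110.5 and 132 FPKM to 172, 182 and 191 FPKM (log2 0.76, limma adjusted p = 0.00061). Of 25 tested interferon-stimulated genes 12 rose and 4 fell (median 0.33), with 14 and 6 under DMSO. *IFI6* (log2 0.98) and *OASL* (log2 1.48) rose, and *OAS3* (log2 −1.61) and *HERC5* (log2 −1.68) fell, so the antiviral OAS family itself was divided. Of 13 tested NF-kB targets 6 rose and 2 fell (median 0.59). The inhibitor *NFKBIA* (log2 0.64), *NFKB2* (log2 0.59) and *BIRC3* (log2 0.99) rose and *NFKB1* fell (log2 −0.81).

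*EP300*, which encodes p300, was at 21.3, 22.7 and 21.2 FPKM in shCtrl CCS1477 and 18.3, 16.4 and 15 FPKM in shHOXB13 CCS1477 (log2 −0.39, SE 0.11, limma adjusted p = 0.014), and with median-of-ratios scaling the difference did not pass (log2 −0.18, limma adjusted p = 0.20), nor did it without shHOXB13 CCS1477 replicate 3 (log2 −0.32). *CREBBP*, which encodes CBP, did not pass (12.9, 11.9 and 11.5 against 11.2, 10.4 and 9.36 FPKM, log2 −0.23, limma adjusted p = 0.086), and its effect was higher than under DMSO (difference 0.75, SE 0.14, limma adjusted p = 0.0062). Among 13 acetyltransferase and BET genes 2 rose and 8 fell (median −0.39), or 3 and 3 with median-of-ratios scaling. *KAT2A* (GCN5) fell from 52.2, 51.1 and 51.1 to 28.1, 28 and 28.1 FPKM, and its close relative *KAT2B* (PCAF) rose (log2 0.81), as did *HEXIM1*, a gene used to follow BET inhibition (log2 0.64). *HDAC3* was at 35.4, 40.4 and 39.4 and 30.6, 30.8 and 31.8 FPKM (log2 −0.30, limma adjusted p = 0.024, and 0.40 with median-of-ratios scaling), and did not pass without shCtrl CCS1477 replicate 2 or 3 or shHOXB13 CCS1477 replicate 1 or 2 (log2 −0.30 to −0.27). Its complex partners *TBL1X* (log2 −0.97) and *NCOR1* (log2 −0.65) fell, and of 8 members of the corepressor list 6 fell and 0 rose (median −0.57). Of 10 tested HOX neighbors and partners 1 rose, *HOXC13* (log2 0.86), and 2 fell, *HOXB9* (log2 −0.76) and *MEIS1* (log2 −1.45), a DNA-binding partner of HOX proteins.

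Markers of other cell types were at low levels. The summed level of the 8 basal markers was 1.72 to 2.27 FPKM in shCtrl CCS1477 and 1.43 to 1.92 FPKM in shHOXB13 CCS1477, and of 4 tested 1 rose, *NGFR* (log2 1.66), with *TP63* listed at 0. The 11 fibroblast and stroma markers summed to 9.6 to 11.4 and 10.6 to 11.3 FPKM, with 0 of 6 tested higher and 2 lower, *COL3A1* and *PDGFRB* (log2 −1.41 and −1.04). *PDGFRB* did not pass without shCtrl CCS1477 replicate 1 (log2 −0.80) or shHOXB13 CCS1477 replicate 1 (log2 −0.93). The 10 immune markers summed to 8.15 to 8.41 and 11.1 to 11.7 FPKM, nearly all of it *CD68* (log2 0.46), a lysosomal protein, which was the 1 of 3 tested members that rose. Neuroendocrine markers fell in sum from 94.8 to 125 FPKM to 23.6 to 24.8 FPKM, mostly through *SYT4*. In that list 0 of 6 tested genes rose and 4 fell, *SYT4*, *EZH2* (log2 −1.46), *PEG10* (log2 −2.89) and *DLL3* (log2 −1.28), and *CHGA* and *INSM1* were at or near 0. Of 14 reference genes commonly used for normalization 3 rose and 4 fell (median −0.40), among them *PGK1* (log2 0.97) and *TFRC* (log2 0.92) upward and *HPRT1* (log2 −0.56) downward, and with median-of-ratios scaling 5 rose and 1 fell (median −0.19). The part of these markers in the other results was not tested.

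Among the largest differences between the arms were genes whose DMSO rise was absent or far smaller under the drug. *STEAP4*, a metalloreductase, was at 0.352, 0.7 and 0.366 FPKM in shCtrl DMSO and 24.4, 23.5 and 25.9 FPKM in shHOXB13 DMSO, a wide gap between the groups. Under CCS1477 it was at 0.331, 0.398 and 0.296 FPKM in shCtrl and 0.197, 0.249 and 0.32 FPKM in shHOXB13 cells, and these libraries overlapped (difference of effects −5.80, SE 0.32, limma adjusted p = 1.8e-06). *ST6GALNAC1*, a sialyltransferase, showed the same pattern (86.7 ± 0.599 FPKM in shHOXB13 DMSO and 6.5 ± 0.577 FPKM in shHOXB13 CCS1477, mean ± SD). The transporter genes *ABCC11* and *ABCC12* averaged 26.4 ± 1.41 and 3.12 ± 0.21 FPKM in shHOXB13 DMSO, and in shHOXB13 CCS1477 *ABCC11* averaged 0.376 ± 0.0701 FPKM and *ABCC12* was at or near 0. *SPINK1*, a secreted trypsin inhibitor, averaged 2.39 ± 0.609 FPKM in shHOXB13 DMSO and was listed at 0 in all shHOXB13 CCS1477 libraries. In the other direction, *BMX*, a tyrosine kinase, fell less under CCS1477 than under DMSO (log2 −1.88 against −5.10), and *PLA2G2A*, a secreted phospholipase, did not pass under CCS1477 (−0.46 against −3.51). *OR51E2*, a prostate-enriched G-protein-coupled receptor, stood in shCtrl cells at 4.62 ± 0.554 FPKM with DMSO and 0.198 ± 0.152 FPKM with CCS1477, and was listed at 0 in all shHOXB13 CCS1477 libraries. The shCtrl level of *BMX* was also lower with the drug, at 0.328 ± 0.0683 against 4.47 ± 0.277 FPKM.

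Calls in opposite directions were made for 4 genes. *HPGD*, which degrades prostaglandins, fell from 3.61, 3.7 and 3.45 FPKM to 1.63, 1.55 and 1.56 FPKM under CCS1477 (log2 −1.13, SE 0.10, limma adjusted p = 3.4e-06) and rose from 7.93, 6.38 and 6.67 FPKM to 38.1, 34.2 and 32.2 FPKM under DMSO (log2 −3.44, SE 0.14, limma adjusted p = 3.6e-07 for the difference). Its 2 pairs of groups did not overlap, which the rule for the largest differences required of the DMSO pair. *REP15*, *MRGPRE* and *AOC1* were called higher under CCS1477 and lower under DMSO, all near or below 1 FPKM. *MRGPRE* did not pass without shHOXB13 CCS1477 replicate 2 or 3 (log2 1.12 or 1.05). *AOC1* did not pass without shCtrl CCS1477 replicate 1 or 2 (log2 0.93 or 1.18) or without shHOXB13 CCS1477 replicate 1, 2 or 3 (log2 1.26, 1.21 or 1.26). At the other end were genes called in the same direction in all 3 contrasts. The CCS1477 contrast had 433 genes higher and 1271 lower (2.72% and 7.99% of tested genes). Of these, 217 and 746 were called in the same direction under DMSO and in the knockdown series. Those with the smallest differences between the arms included *ABHD2*, a monoacylglycerol lipase, at 189, 211 and 243 FPKM in shCtrl CCS1477 and 1006, 1049 and 963 FPKM in shHOXB13 CCS1477 (log2 2.24 and 2.24), *CPNE3*, a copine (−1.56 and −1.56), *UHRF1*, which maintains DNA methylation (−2.53 and −2.54), and *CKS1B*, a CDK subunit (−2.56 and −2.56). They were chosen for this likeness, so it is a description.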

How the data were processed

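RNA abundance came from polyA RNA-seq of LNCaP cells. The authors aligned paired-end reads to GRCh38 with STAR (2.6.0 in the submitters' processing notes), counted reads per gene without strand, and deposited FPKM, that is reads scaled to gene length and mapped reads, for 26475 genes, 32 of them without a value. The authors called genes with pairwise DESeq2 tests, which were not repeated here because the files hold no counts.

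Mapped reads per library were recovered from the FPKM of microRNA hairpins of known length, with at least 62 hairpins for each library. Gene lengths were then chosen so that the values became whole reads. Reads rebuilt in this way were within 0.05 of whole numbers for 99.96% of 475332 values. The choice of lengths favors this share, so it is not a check of the rebuilt reads. Genes at 0.1 FPKM or more in at least 3 of the 12 CCS1477-series libraries were tested with limma 3.58.1 (R 4.3.3, trend) on log2(FPKM + 0.1), in 1 fit of the 4 groups, with Benjamini-Hochberg adjustment over all 15907 genes. This scale understates changes of low genes. Calls needed an adjusted p under 0.05, plus 2-fold where stated. Lists (33) are described by counts at adjusted p under 0.05. The 16 knockdown libraries had their own fit (0.1 FPKM in at least 2). Scripts were tested on simulated data. Positions are from GENCODE 44 and promoters from RefSeq, which held 11911 of the tested genes.

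Named genes are those the study names, the 12 largest rises and 12 largest falls that passed (1 FPKM or more on average in a group, no overlap between libraries), the 4 smallest p-values in each list, the 8 largest differences of effects in each direction, up to 6 genes called in opposite directions, and up to 8 like effects in all 3 contrasts. The largest differences of effects had the same limits on level and overlap, judged in the arm with the larger effect. Readthrough, LOC, microRNA and snoRNA entries were skipped. Other list members were named after their values were seen. Some genes that meet these rules are not reported here, though list counts include them. The comparison, lists and rules were chosen with earlier results of these data known.

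Same-numbered libraries did not deviate together between the CCS1477 groups (r −0.03 to −0.01). The shCtrl DMSO and shCtrl CCS1477 libraries of one number did (r 0.14 to 0.32), but those numbered 2 and 3 correlated also across numbers (0.13 and 0.10), and the shHOXB13 groups did not pair (r −0.07 to 0.01), so numbers were not used as pairs. Alternatives covered pseudocount, filter, scaling, fold threshold, samples fitted, a replicate block, voom weights and leaving out each library.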

Additional observations from a re-analysis of the deposited data

Results flagged for a closer look

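Differences between the drug and vehicle arms were tested directly, as the *HOXB13* KD effect under CCS1477 minus that under DMSO. At an adjusted p under 0.05 and at least 2-fold, limma called 171 genes with a lower and 390 with a higher effect under CCS1477, and in the genes named below the difference passed.

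Among named genes the lower effects were those of *STEAP4* (−5.8), *ABCC11* (−5.34), *SPINK1* (−5.01), *ABCC12* (−4.87), *UGT2B11* (−3.53), *HPGD* (−3.44), *UGT2B28* (−3.15) and *ST6GALNAC1* (−3.06). *FASN* and *KLK3*, genes that the study names, each had a difference of −1.13. *SPINK1* and *ABCC12* were listed at 0 in all shCtrl DMSO libraries, so the size of their differences depends on the 0.1 added before logs.

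The higher effects were those of *FGF21*, a metabolic hormone (3.59), *BEST1*, a chloride channel (3.44), *OR51E2* (3.39), *LPAL2* (3.23), *BMX* (3.21), *LINC01512* (3.21), *KRT14*, a basal keratin (3.21), *PLA2G2A* (3.05), *MMP12* (2.81), *REP15* (2.6), *MRGPRE* (2.43), *AOC1* (2.42) and *MMP10* (1.91). *FGF21* and *REP15* were listed at 0 in all shHOXB13 DMSO libraries, and *OR51E2* and *LINC01512* in all shHOXB13 CCS1477 libraries. The *KRT14* difference did not pass without shCtrl DMSO replicate 1, 2 or 3 (2.99, 3.35 or 3.29), without shHOXB13 DMSO replicate 1 or 2 (3.04 or 3.04), or without shHOXB13 CCS1477 replicate 1, 2 or 3 (3.36, 2.91 or 3.36), nor with a replicate block, voom, a pseudocount of 0.01 or no filter (limma adjusted p = 0.052, 0.14, 0.22 and 0.064). The *OR51E2* difference did not pass with a pseudocount of 0.01 or voom (1.91 and 2.14, limma adjusted p = 0.13 and 0.15), nor the *BMX* difference with a pseudocount of 0.01 (3.34, limma adjusted p = 0.15).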

How the results depend on the processing

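Counts of genes higher and lower under CCS1477 (433 and 1271), shared with DMSO (273 and 1038), and with a lower or higher effect under CCS1477 (171 and 390) depended most on the pseudocount and the fold threshold. With log2(FPKM + 1), 197 were higher and 606 lower, 142 and 538 were shared with DMSO, and 135 had a higher effect. The medians under CCS1477 over genes raised or lowered in the knockdown series were 0.41 and −0.57 (0.65 and −0.85 under DMSO). At a 1.5-fold threshold the counts were 978, 2859, 632, 2421, 390 and 1068, in the order above, and the medians 0.60 and −0.55. With median-of-ratios scaling 451 and 686 genes were shared with DMSO and the medians were 0.95 and −0.58 (1.40 and −0.85 under DMSO). The raised median was 0.85 with a filter at 1 FPKM, 0.71 without a filter, 0.83 scaled to reads in genes, 0.92 with a pseudocount of 0.01 and 0.87 with voom. In the same order the raised median under DMSO was 1.25, 1.025, 1.12, 1.34 and 1.27. The lowered median was −0.73 scaled to reads in genes, −0.83 with a pseudocount of 0.01 and −0.83 with voom (−1.16, −1.25 and −1.24 under DMSO). The cause was not tested. Leaving out each library in turn gave 383 to 445, 1180 to 1316, 260 to 276, 991 to 1054, 134 to 182 and 319 to 439 genes, and medians of 0.76 to 0.81 and −0.80 to −0.77. With a replicate block 436 and 1295 genes were called under CCS1477, 273 and 1050 were shared with DMSO, and 162 and 383 had a lower or higher effect, and the pairing was not used because same-numbered libraries deviated together only between the shCtrl groups. For named genes the block took the *KRT14*, *COLCA1*, *PMVK*, *PLIN4*, *NCOR1* and *PMEPA1* differences of effects out of the calls (limma adjusted p = 0.052 to 0.062) and added those of *CCNB1*, *CENPF*, *MSMO1* and *SYVN1* (0.039 to 0.045), and the *HOXB7* effect under CCS1477 (0.046). The alternatives scaled to reads in genes and without both shCtrl libraries numbered 1 were chosen after seeing the data. For named genes the *COLCA1* difference of effects turned from −0.80 to 0.19 with log2(FPKM + 1). Of 174 tested named genes 14 lost their call under CCS1477 in at least 1 alternative and 8 gained one, and 22 and 17 did for the difference of effects. Depth limits genes near 0.1 FPKM, which rest on few reads.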

Other observations

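Several of the largest rises under CCS1477 were neighbors. *NUDT8*, *TBX10* and *DOC2GP* lie side by side on chromosome 11, so all genes annotated within 100000 bases of *NUDT8* (chr11:67627938-67629937, minus strand, GRCh38) were looked up, after the values of these 3 were seen. Of 14 annotated genes 6 were tested, and all 6 rose with *HOXB13* KD under CCS1477, 5 of them by at least 2-fold. Over all tested genes 12% rose at an adjusted p under 0.05, and 2.72% rose by at least 2-fold as well. *NUDT8*, *TBX10* and *DOC2GP* are among the 6 and set the window, so their rises say nothing about their neighbors. That leaves *ALDH3B2*, *NDUFV1* and *ACY3*, too few to compare with these shares. *ALDH3B2*, an aldehyde dehydrogenase gene, went from 7.89, 7.38 and 8.47 FPKM to 59.5, 61.6 and 56.5 FPKM (log2 2.89, SE 0.07, limma adjusted p = 3.1e-10), and *NDUFV1*, a core subunit of respiratory complex I, from 134, 118 and 117 FPKM to 213, 216 and 214 FPKM (log2 0.80, limma adjusted p = 1.0e-05). *ACY3* was near the detection limit and its libraries overlapped (0.194, 0 and 0 against 0.16, 0.273 and 0.265 FPKM, limma adjusted p = 0.027). All 6, including the 3 that set the window, also rose under DMSO, where 15.2% of all tested genes did. *ALDH3B2* rose by less with the drug (difference −1.19, limma adjusted p = 4.8e-05) and *NUDT8* by more (difference 0.78, limma adjusted p = 0.0081).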
